A study of Mus musculus with 12 samples.

Results

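The integrin and laminin genes of the mouse ascending aorta were described here on 12 whole-transcript microarrays. They were chosen by symbol from the array annotation, as every gene whose symbol begins with Itga or Itgb, or with Lama, Lamb or Lamc and a digit. Of 19938 genes with a probe set annotated to them alone, 41 met this rule, and 38 of them were bright enough to be tested. By role they were 4 chains of collagen receptors, 4 of laminin receptors, 11 of receptors for fibronectin and other matrix, 8 of leukocyte integrins, 10 laminin chains and 4 proteins that are named after integrins without being integrin chains. Itgae, Itgb6 and Itgb3bp had mean levels under the filter, which was a log2 intensity of 7.31, and were not tested.

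Integrins are receptors on the cell surface, each a pair of an alpha and a beta chain, that tie the actin cytoskeleton to the matrix or to other cells. Laminins are trimers of an alpha, a beta and a gamma chain and form the sheet of the basement membrane that surrounds each smooth muscle cell of the aortic wall. Integrins with the Itgav chain also bind latent TGF-beta, which is stored on fibrillin microfibrils, and some of them release it in active form. Leukocytes carry integrins of their own, which bind adhesion molecules on endothelium and complement fragments.

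The 4 groups held 3 arrays each and crossed the Fbn1 genotype with the state of Tgfbr2, which encodes the TGF-beta type II receptor. Mutant knockouts carried Fbn1C1039G/+, a fibrillin allele used as a model of Marfan syndrome, and received tamoxifen. Mutant controls carried the same allele and received corn oil, the vehicle. Wild-type knockouts had wild-type Fbn1 and received tamoxifen, and wild-type controls had wild-type Fbn1 and received corn oil. All groups, controls included, carried Myh11-CreERT2, a recombinase driven by a smooth muscle promoter and switched on by tamoxifen, and the floxed alleles Tgfbr2f/f. Tamoxifen was given as 1 mg by intraperitoneal injection on 5 days from 4 weeks of age, and the ascending aorta was taken at 6 weeks. Every comparison of knockout with control is therefore also one of tamoxifen with vehicle. Separate animals are not stated for the 3 arrays of a group, so the p-values measure only the spread between these arrays, which may be technical. Arrays are called by group and title number.

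The arrays agreed closely in brightness, with a median intensity between 300.9 and 334.0. Tgfbr2 was read by 1 probe set at 12.03 ± 0.05 in mutant knockouts and 11.99 ± 0.04 in mutant controls, and at 11.87 ± 0.08 in wild-type knockouts and 11.95 ± 0.01 in wild-type controls (log2 intensity, SD, n = 3 each). Neither difference passed limma's test (adjusted p = 0.594 in the mutant and 0.324 in the wild-type), and the position of its probes in the gene was not analysed here. "Knockout" below is therefore the name the labels give. All 9 smooth muscle markers passed the filter, and their summed intensity lay between 110400 and 111800 in mutant knockouts, 109400 and 112900 in mutant controls, 110100 and 111700 in wild-type knockouts and 113100 and 114600 in wild-type controls. Some arrays stood apart on genes of other origin. The brown fat gene Ucp1 read 8.21 on mutant knockout 1 and 8.58 on mutant control 3, against 6.75 to 7.30 on the other 10 arrays. A score of 15 immediate early genes was highest on mutant knockout 1, at 1.97, with the other 11 arrays between -1.16 and 0.92. A call of an integrin or laminin gene that was lost without the Ucp1 arrays or with this score in the model is said to be so beside it.

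Levels are log2 intensity, on which a difference of 1 is a 2-fold change, and levels of different genes are not comparable because each has its own probes. Differences are given with limma's standard error and rest on 3 arrays per group, and a gene is said to have risen or fallen where its p, adjusted over all 14944 genes tested, was under 0.05. In wild-type Fbn1, 17 of the 38 tested genes (44.7%) changed between knockout and control, against 18.8% of all genes tested. Of the 17, 6 rose and 11 fell, where 9.17% and 9.66% of all genes rose and fell. In mutant Fbn1, 12 of 38 (31.6%) changed, against 13.4% of all genes, with 3 risen and 9 fallen where 7.66% and 5.77% of all genes rose and fell. The median size of the difference, whatever its sign, was 0.20 over the 38 genes in the wild-type and 0.09 over all genes, and 0.18 and 0.10 in the mutant. Arrays of knockout and control did not overlap for 24 of the 38 genes in the wild-type, where 35.8% of all genes did not, and for 21 in the mutant, where 35.9% did not. The wild-type count was 10 when wild-type knockout 3 was left out, and 11 when either wild-type knockout 1 or wild-type control 3 was, and the mutant count was 7 without mutant control 1 and 6 without mutant knockout 2. With only the 2 groups compared in the fit or with the immediate early score in the model, the mutant count was 6 and 7. Over all genes, 2008 were called for the knockout in the mutant, against 1082 without the 2 arrays of highest Ucp1 and 1012 with the immediate early score in the model. Some genes passed the test in both Fbn1 genotypes, each in the same direction: Itga2, Itgam and Itgb2 rose, and Itga7, Itga8, Itga9, Itgb3, Itgb5 and Itgbl1 fell. The share of all genes that passed in both was not counted. In whole aorta, a change in the number of cells of a type and a change in RNA per cell cannot be told apart.

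**Figure D1:**
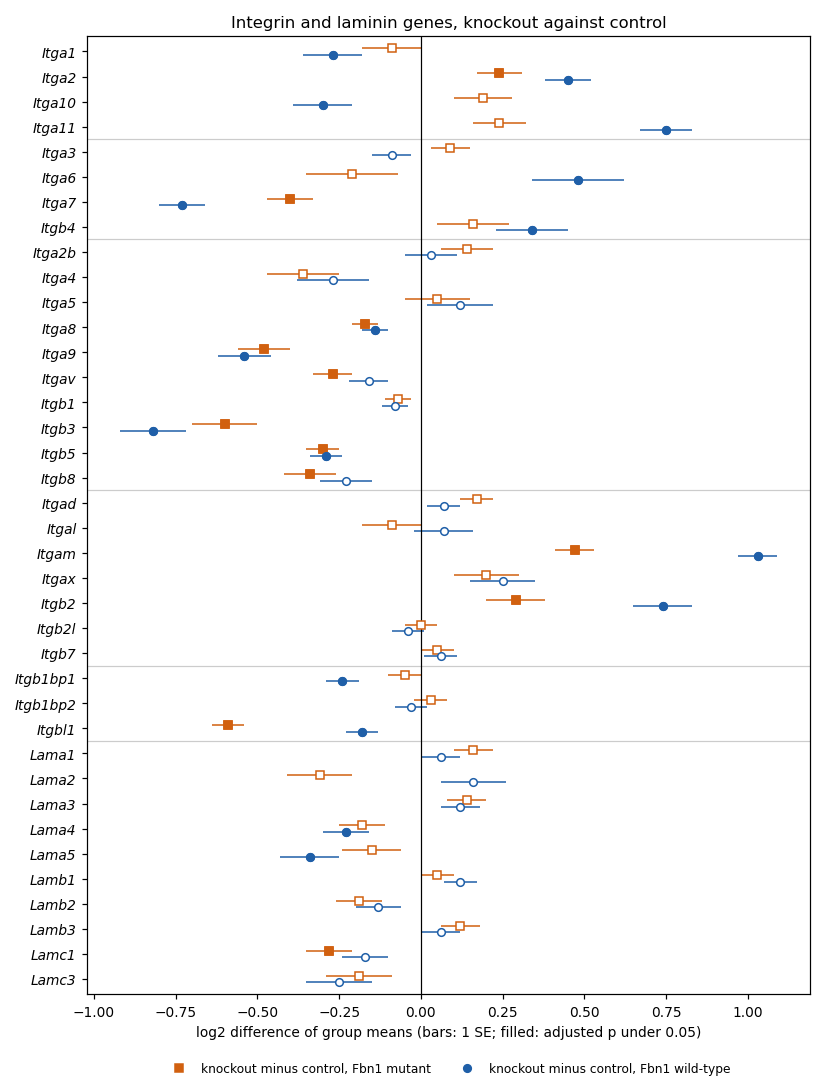
Difference of group means, knockout minus control, in log2 units for the 38 tested genes in order of role (grey lines), with squares for mutant Fbn1, circles for wild-type Fbn1 and bars of 1 SE. Filled symbols have an adjusted p under 0.05. Receptors of fibronectin and other matrix lie mostly left of 0, and Itgam, at 1.03 in the wild-type, lies farthest right.

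The stretches of DNA just before a listed promoter start of 4 genes are shown as examples of genes that rose or fell. Itgam rose in knockouts of both genotypes, Itga11 rose in wild-type knockouts, and Itga8 and Itgb5 fell in knockouts of both genotypes. The stretches are the 250 bases before the start of the gene's promoter entry, written 5′ to 3′ on its strand, from RefSeq's mouse build GRCm38.p6. This start can differ from that of the annotated gene. The stretch of Itga8 runs into the annotated gene, and that of Itgav, not shown, lies wholly inside it. RefSeq's table held a promoter for 27 of the 41 genes, 30 promoters in all.
Itgam chr7:128062390-128062639 (plus strand): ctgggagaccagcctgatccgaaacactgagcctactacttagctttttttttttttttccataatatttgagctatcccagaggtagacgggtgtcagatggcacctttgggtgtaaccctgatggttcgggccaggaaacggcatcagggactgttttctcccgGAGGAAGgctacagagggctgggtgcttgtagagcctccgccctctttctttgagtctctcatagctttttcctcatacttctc
Itga11 chr9:62677605-62677854 (plus strand): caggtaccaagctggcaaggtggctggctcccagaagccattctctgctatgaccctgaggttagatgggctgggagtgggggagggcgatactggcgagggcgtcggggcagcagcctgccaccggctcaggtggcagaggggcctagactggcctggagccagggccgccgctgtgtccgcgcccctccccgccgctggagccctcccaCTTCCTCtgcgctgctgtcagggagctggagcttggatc
Itga8 chr2:12301945-12302194 (minus strand): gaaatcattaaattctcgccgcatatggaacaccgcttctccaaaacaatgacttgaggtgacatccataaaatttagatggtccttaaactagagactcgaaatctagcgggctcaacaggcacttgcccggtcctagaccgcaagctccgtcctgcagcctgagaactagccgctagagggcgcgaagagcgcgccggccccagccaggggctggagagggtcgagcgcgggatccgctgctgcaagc
Itgb5 chr16:33829415-33829664 (plus strand): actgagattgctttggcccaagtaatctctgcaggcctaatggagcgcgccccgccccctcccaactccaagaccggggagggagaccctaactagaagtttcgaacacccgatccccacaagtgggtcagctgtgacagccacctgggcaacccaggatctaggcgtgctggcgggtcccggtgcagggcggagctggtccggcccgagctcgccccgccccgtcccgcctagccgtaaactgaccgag
Capitals mark matches to GAGGAAG, the core of sites of the myeloid factor PU.1, searched on both strands. The match in Itgam begins 84 bases before the start, and that in Itga11 begins 39 bases before it and lies on the opposite strand, so that it reads as its reverse complement. This motif was found in 8 of the 30 promoters and in 10.6% of all 32851 promoters of that length in the table. Among genes not shown, Itgav, which fell in the mutant, had a match 8 bases before the start of its promoter entry. Itga2, which rose in both genotypes, had no match. Whether the motif goes with the direction of change was not tested. CAGAC, part of SMAD sites, was found in 17 of the 30 and in 42.2% of all, TGANTCA, the AP-1 site, in 1 of the 30 and in 6.7% of all, and the CArG box of serum response factor in 2 of the 30 and in 1.5% of all. These last 3 motifs had no match in the 4 stretches shown, and no match overlapped a match of another motif there. A match is a run of letters and was not tested as a binding site.

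The collagen receptors are dimers of Itgb1 with Itga1, Itga2, Itga10 or Itga11. In wild-type Fbn1 all 4 alpha chains changed, 2 upward and 2 downward, where 9.17% and 9.66% of all genes rose and fell. In the mutant 1 rose and 3 did not pass the test, where 7.66% of all genes rose. Itga11 read 9.01, 9.04 and 9.31 in mutant knockouts against 8.80, 8.82 and 9.04 in mutant controls, and 9.76, 9.83 and 9.68 in wild-type knockouts against 8.97, 8.98 and 9.05 in wild-type controls. The 3 wild-type knockouts stood above all 9 other arrays, and the mutant groups overlapped. Itga11, a receptor of fibrillar collagen made by fibroblasts and other mesenchymal cells, rose by 0.75 ± 0.08 (adjusted p = 8.78e-05) in the wild-type, a 1.69-fold level. In the mutant its difference was 0.24 ± 0.08 (adjusted p = 0.0766). Of 6 fibroblast markers, 1 rose in the mutant and 4 in the wild-type, and 0 fell. Their median difference was -0.10 in the mutant and 0.31 in the wild-type. Their summed intensity lay between 43990 and 48780 in mutant knockouts, 48630 and 49800 in mutant controls, 50540 and 53490 in wild-type knockouts and 41770 and 46660 in wild-type controls. One of them, Lum, a proteoglycan of collagen fibrils, had differences of -0.13 ± 0.08 (adjusted p = 0.273) in the mutant and 0.51 ± 0.08 (adjusted p = 0.000743) in the wild-type, and the part of fibroblasts in the Itga11 result was not tested. Itga2 read 8.15, 8.34 and 8.34 in mutant knockouts against 8.12, 8.05 and 7.93 in mutant controls, and 8.40, 8.42 and 8.53 in wild-type knockouts against 7.97, 7.95 and 8.10 in wild-type controls. Knockouts lay above controls in both genotypes without overlap. Itga2, a collagen receptor well known on platelets and epithelium, rose by 0.45 ± 0.07 (adjusted p = 0.000959) in the wild-type and by 0.24 ± 0.07 (adjusted p = 0.0395) in the mutant. The mutant call of Itga2 was lost in 10 of 23 alternative fits, when any 1 of mutant knockouts 2 and 3, mutant controls 2 and 3 and wild-type knockout 1 was left out, after quantile normalization, with the medians of the arrays set equal, in a fit of only the groups compared, with the replicate block and without the 2 arrays of highest Ucp1, and its adjusted p lay between 0.0162 and 0.126 over them.

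Itga1 read 11.39, 11.33 and 11.51 in mutant knockouts against 11.68, 11.39 and 11.40 in mutant controls, and 11.35, 11.48 and 11.43 in wild-type knockouts against 11.80, 11.56 and 11.72 in wild-type controls. Wild-type knockouts lay below wild-type controls without overlap, while the mutant groups overlapped. Itga1, the alpha chain of a receptor that prefers basement membrane collagen and is carried by smooth muscle, fell by 0.27 ± 0.09 (adjusted p = 0.0433) in the wild-type, and its difference in the mutant was -0.09 ± 0.09 (adjusted p = 0.508). The wild-type call of Itga1 was lost in 9 of 24 alternative fits, when any 1 of mutant knockout 1, wild-type knockouts 1, 2 and 3 and wild-type controls 1 and 3 was left out, with no filter on the mean, without the 2 arrays of highest Ucp1 and with the immediate early score in the model, and its adjusted p lay between 0.0176 and 0.142 over them. Itga10 read 9.95, 9.86 and 10.14 in mutant knockouts against 9.71, 9.82 and 9.86 in mutant controls, and 9.56, 9.49 and 9.37 in wild-type knockouts against 9.60, 9.82 and 9.91 in wild-type controls. Wild-type knockouts were the lowest of the 4 groups, and the highest 2 readings were of mutant knockouts. Itga10, best known from cartilage, fell by 0.30 ± 0.09 (adjusted p = 0.0344) in the wild-type and had a difference of 0.19 ± 0.09 (adjusted p = 0.174) in the mutant. The wild-type call of Itga10 was lost in 5 of 24 alternative fits, when any 1 of wild-type knockouts 2 and 3 and wild-type controls 2 and 3 was left out and without the 2 arrays of highest Ucp1, and its adjusted p lay between 0.0113 and 0.131 over them.

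Among the 4 laminin receptor chains, 2 rose and 1 fell in the wild-type, where 9.17% and 9.66% of all genes rose and fell. In the mutant 1 fell, where 5.77% of all genes fell. Itga7 read 11.24, 11.11 and 11.30 in mutant knockouts against 11.60, 11.61 and 11.62 in mutant controls, and 11.07, 11.25 and 10.98 in wild-type knockouts against 11.77, 11.91 and 11.81 in wild-type controls. Knockouts lay below controls in both genotypes, with no overlap. Itga7, the laminin receptor chain of muscle, where it pairs with Itgb1, fell by 0.73 ± 0.07 (adjusted p = 3.23e-05) in the wild-type, to a 0.60-fold level, and by 0.40 ± 0.07 (adjusted p = 0.00412) in the mutant. Both calls of Itga7 were kept in all 24 alternative fits. The difference between the genotypes in this effect was 0.33 ± 0.10 (adjusted p = 0.126) and did not pass the test.

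Itga6 read 8.49, 8.40 and 8.60 in mutant knockouts against 8.59, 8.72 and 8.80 in mutant controls, and 9.30, 8.85 and 8.80 in wild-type knockouts against 8.54, 8.73 and 8.24 in wild-type controls. Wild-type knockouts lay above wild-type controls without overlap, wild-type knockout 1 being the highest array, and the mutant groups overlapped. Itga6, a laminin receptor chain of endothelium and epithelium, rose by 0.48 ± 0.14 (adjusted p = 0.0286) in the wild-type, against a difference of -0.21 ± 0.14 (adjusted p = 0.315) in the mutant. The wild-type call of Itga6 was lost in 5 of 23 alternative fits, when any 1 of wild-type knockout 1 and wild-type controls 1 and 3 was left out, in a fit of only the groups compared and with the immediate early score in the model, and its adjusted p lay between 0.0173 and 0.114 over them. Itgb4 read 10.00, 10.04 and 9.88 in mutant knockouts against 9.81, 9.74 and 9.89 in mutant controls, and 9.91, 10.14 and 10.44 in wild-type knockouts against 9.74, 9.76 and 9.97 in wild-type controls. Every pair of groups compared overlapped. Itgb4, which pairs with Itga6 and anchors epithelial cells, rose by 0.34 ± 0.11 (adjusted p = 0.0465) in the wild-type and had a difference of 0.16 ± 0.11 (adjusted p = 0.336) in the mutant. The wild-type call of Itgb4 was lost in 13 of 24 alternative fits, when any 1 of mutant knockouts 1 and 2, mutant controls 1, 2 and 3, wild-type knockouts 2 and 3 and wild-type controls 1 and 2 was left out, with no filter on the mean, with the medians of the arrays set equal, in a fit of only the groups compared and without the 2 arrays of highest Ucp1, and its adjusted p lay between 0.0091 and 0.174 over them. Of 8 endothelial markers, 3 rose and 0 fell in each genotype, where 7.66% of all genes rose in the mutant and 9.17% in the wild-type. The median difference of these 8 markers was 0.39 in the mutant, where Itga6 had -0.21, and 0.43 in the wild-type. Their summed intensity lay between 14580 and 17620 in mutant knockouts, 11140 and 14980 in mutant controls, 16600 and 21450 in wild-type knockouts and 12540 and 14820 in wild-type controls. Of 6 tested markers of epithelium and mesothelium, 1 rose in the mutant and 0 changed in the wild-type, by limma's adjusted p. Their part in the Itga6 and Itgb4 results was not tested. Itga3, a further laminin receptor chain, had differences of 0.09 ± 0.06 in the mutant and -0.09 ± 0.06 in the wild-type, neither past the test.

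Receptors for fibronectin, for proteins with the RGD sequence and for other matrix moved downward wherever they passed. Of 10 tested chains, 6 fell and 0 rose in the mutant, and 4 fell and 0 rose in the wild-type. Of all genes, 5.77% fell in the mutant and 9.66% in the wild-type. Their median difference was -0.29 in the mutant, where all genes had 0.03, and -0.20 in the wild-type, where all genes had -0.01. Itgb3, Itga9, Itgb5 and Itga8 fell in both genotypes, and Itgav and Itgb8 fell in the mutant.

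Itgb3 read 10.73, 10.79 and 10.95 in mutant knockouts against 11.67, 11.29 and 11.33 in mutant controls, and 10.75, 10.89 and 10.80 in wild-type knockouts against 11.53, 11.56 and 11.82 in wild-type controls. Every knockout array lay below every control array, and the knockouts of both genotypes were near each other. Itgb3, a partner of Itgav in vascular cells and of Itga2b on platelets, fell by 0.82 ± 0.10 (adjusted p = 0.000208) in the wild-type, to a 0.56-fold level, and by 0.60 ± 0.10 (adjusted p = 0.0034) in the mutant. Itga9 read 12.78, 12.83 and 12.70 in mutant knockouts against 13.43, 13.20 and 13.12 in mutant controls, and 12.67, 12.79 and 12.73 in wild-type knockouts against 13.21, 13.23 and 13.38 in wild-type controls. Again no knockout array reached the lowest control array. Itga9, whose dimer with Itgb1 binds tenascin C and osteopontin, fell by 0.54 ± 0.08 (adjusted p = 0.000504) in the wild-type and by 0.48 ± 0.08 (adjusted p = 0.00247) in the mutant. Calls of both genes in both genotypes were kept in all 24 alternative fits.

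Itgb5 read 13.05, 13.10 and 13.08 in mutant knockouts against 13.45, 13.33 and 13.36 in mutant controls, and 13.25, 13.28 and 13.26 in wild-type knockouts against 13.53, 13.57 and 13.55 in wild-type controls. The 4 groups did not overlap at all, with mutant knockouts lowest, then wild-type knockouts, mutant controls and wild-type controls. Itgb5, a partner of Itgav that binds vitronectin, fell by 0.30 ± 0.05 (adjusted p = 0.00152) in the mutant and by 0.29 ± 0.05 (adjusted p = 0.000931) in the wild-type, and both calls were kept in all 24 alternative fits. Itga8 read 13.93, 13.92 and 13.96 in mutant knockouts against 14.12, 14.09 and 14.09 in mutant controls, and 13.94, 13.93 and 13.95 in wild-type knockouts against 14.08, 14.05 and 14.09 in wild-type controls. Knockout arrays lay below control arrays within a narrow range. Itga8, a chain rich in smooth muscle whose dimer with Itgb1 binds nephronectin, fell by 0.17 ± 0.04 (adjusted p = 0.0207) in the mutant and by 0.14 ± 0.04 (adjusted p = 0.0354) in the wild-type. The mutant call of Itga8 was lost in 7 of 24 alternative fits, when any 1 of mutant knockouts 1 and 2 and mutant controls 1 and 2 was left out, in a fit of only the groups compared, without the 2 arrays of highest Ucp1 and with the immediate early score in the model, and its adjusted p lay between 0.00121 and 0.0892 over them. Its wild-type call was lost in 13 of 24 alternative fits, when any 1 of mutant knockout 1, mutant control 2, wild-type knockouts 1, 2 and 3 and wild-type controls 1, 2 and 3 was left out, with no filter on the mean, in a fit of only the groups compared, with the replicate block, without the 2 arrays of highest Ucp1 and with the immediate early score in the model, and its adjusted p lay between 0.00226 and 0.0967 over them.

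Itgav read 12.21, 12.17 and 12.25 in mutant knockouts against 12.63, 12.43 and 12.38 in mutant controls, and 12.36, 12.32 and 12.33 in wild-type knockouts against 12.56, 12.49 and 12.42 in wild-type controls. Knockouts lay below controls in both genotypes without overlap, and mutant knockouts were lowest. Itgav, the shared alpha chain of RGD receptors, fell by 0.27 ± 0.06 (adjusted p = 0.0186) in the mutant and had a difference of -0.16 ± 0.06 (adjusted p = 0.108) in the wild-type. Its mutant call was lost in 5 of 24 alternative fits, when any 1 of mutant knockouts 1 and 2 and mutant control 1 was left out, in a fit of only the groups compared and with the immediate early score in the model, and its adjusted p lay between 0.00687 and 0.0654 over them. Itgb8 read 9.29, 9.28 and 9.28 in mutant knockouts against 9.80, 9.65 and 9.42 in mutant controls, and 9.83, 9.91 and 9.85 in wild-type knockouts against 10.01, 10.03 and 10.23 in wild-type controls. The groups stood in steps without overlap between those compared, mutant knockouts at the bottom and wild-type controls at the top. Itgb8, which with Itgav activates latent TGF-beta, fell by 0.34 ± 0.08 (adjusted p = 0.0219) in the mutant and had a difference of -0.23 ± 0.08 (adjusted p = 0.0802) in the wild-type. The mutant call of Itgb8 was lost in 6 of 24 alternative fits, when any 1 of mutant knockouts 1 and 2 and mutant controls 1 and 2 was left out, in a fit of only the groups compared and with the immediate early score in the model, and its adjusted p lay between 0.00309 and 0.0995 over them.

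**Figure D2:**
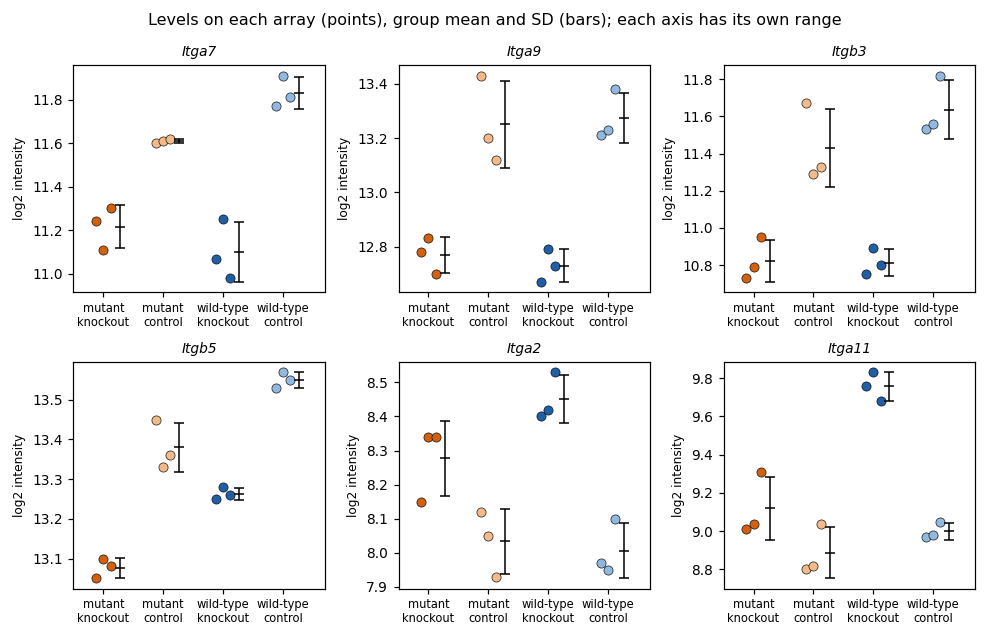
Log2 intensity on each array for 4 genes that fell (Itga7, Itga9, Itgb3, Itgb5) and 2 that rose (Itga2, Itga11), by group in the order mutant knockout, mutant control, wild-type knockout, wild-type control, with the mean and SD as bars and a separate range for each gene. Itgb3 lies at or below 10.95 on all knockout arrays and at or above 11.29 on all control arrays, and Itga11 lies at or above 9.68 only on wild-type knockouts.

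The common beta chain Itgb1 did not pass the test in either genotype. It averaged 13.30 ± 0.01 in mutant knockouts and 13.37 ± 0.02 in mutant controls, and 13.36 ± 0.02 in wild-type knockouts and 13.44 ± 0.02 in wild-type controls (SD, n = 3 each). Groups did not overlap in either genotype, but the differences were -0.07 ± 0.04 (adjusted p = 0.266) in the mutant and -0.08 ± 0.04 (adjusted p = 0.206) in the wild-type, with 95% intervals of -0.15 to 0.02 and -0.17 to 0.01. Itga4, whose dimers bind fibronectin and Vcam1, had a difference of -0.36 ± 0.11 (adjusted p = 0.0511) in the mutant and -0.27 ± 0.11 (adjusted p = 0.118) in the wild-type, with knockouts below controls on every array. The fibronectin receptor chain Itga5 had 0.05 ± 0.10 in the mutant and 0.12 ± 0.10 in the wild-type, with overlapping groups. Itga2b, the platelet fibrinogen receptor chain, had 0.14 ± 0.08 and 0.03 ± 0.08. Itgb6, an epithelial partner of Itgav, read between 5.84 and 5.95 on all 12 arrays, below the filter.

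Leukocyte integrins rose where they passed the test, with 2 of 7 tested chains risen in each genotype and 0 fallen. Of all genes, 7.66% rose in the mutant and 9.17% in the wild-type. Itgam read 8.58, 8.59 and 8.65 in mutant knockouts against 8.03, 8.13 and 8.25 in mutant controls, and 9.15, 9.06 and 9.04 in wild-type knockouts against 7.98, 8.13 and 8.05 in wild-type controls. Knockouts lay above controls without overlap, and wild-type knockouts lay above mutant knockouts. Itgam, which with Itgb2 forms the complement receptor of macrophages and neutrophils, rose by 0.47 ± 0.06 (adjusted p = 0.00066) in the mutant, a 1.39-fold level, and by 1.03 ± 0.06 (adjusted p = 1.39e-06) in the wild-type, a 2.05-fold level. The difference between the genotypes, mutant minus wild-type, was -0.56 ± 0.09 (adjusted p = 0.00891). Each of these calls of Itgam was kept in every alternative fit.

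Itgb2 read 8.89, 9.0 and 9.18 in mutant knockouts against 8.64, 8.64 and 8.92 in mutant controls, and 9.39, 9.50 and 9.46 in wild-type knockouts against 8.60, 8.78 and 8.76 in wild-type controls. Wild-type knockouts were highest, and mutant control 3 lay above mutant knockout 1. Itgb2, the beta chain shared by the main leukocyte integrins, rose by 0.74 ± 0.09 (adjusted p = 0.000153) in the wild-type, kept in all 24 alternative fits, and by 0.29 ± 0.09 (adjusted p = 0.0499) in the mutant. The mutant call of Itgb2 was lost in 16 of 24 alternative fits, when any 1 of mutant knockouts 2 and 3, mutant controls 1 and 2, wild-type knockouts 1, 2 and 3 and wild-type controls 1, 2 and 3 was left out, with no filter on the mean, after quantile normalization, with the medians of the arrays set equal, with a variance trend, in a fit of only the groups compared and with the immediate early score in the model, and its adjusted p lay between 0.0104 and 0.171 over them. The difference of its effects was -0.45 ± 0.13 (adjusted p = 0.103). Of the other alpha chains of Itgb2, Itgax had differences of 0.20 ± 0.10 in the mutant and 0.25 ± 0.10 in the wild-type, Itgad had 0.17 ± 0.05 and 0.07 ± 0.05, and the lymphocyte chain Itgal had -0.09 ± 0.09 and 0.07 ± 0.09, none past the test. Itgb7, a lymphocyte chain, had 0.05 ± 0.05 in the mutant and 0.06 ± 0.05 in the wild-type, and Itgb2l, a product of mouse neutrophils, had 0.00 ± 0.05 and -0.04 ± 0.05. Itgae, the partner of Itgb7, read between 6.97 and 7.41 over the 12 arrays, with its mean under the filter.

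Macrophage markers moved with Itgam and Itgb2. All 12 passed the filter. In the mutant 5 rose and 0 fell, where 7.66% of all genes rose. In the wild-type 11 rose and 0 fell, where 9.17% of all genes rose. The median differences of the 12 markers were 0.34 in the mutant and 0.96 in the wild-type. Their summed intensity lay between 20810 and 21970 in mutant knockouts and 16130 and 19390 in mutant controls. It lay between 26290 and 28150 in wild-type knockouts and 15530 and 16790 in wild-type controls. The macrophage surface receptor Adgre1 rose by 0.36 ± 0.08 (adjusted p = 0.0154) in the mutant and by 1.22 ± 0.08 (adjusted p = 2.91e-06) in the wild-type, and its difference between the genotypes was -0.86 ± 0.12 (adjusted p = 0.00415). This difference passed for 2 of the 12 markers, both downward, against 1.08% of all genes downward, with a median of -0.58 over the 12. It was 0.00 ± 0.40 for the marker Vsig4, which rose by 1.79 ± 0.28 in the mutant and by 1.78 ± 0.28 in the wild-type. Of other leukocytes, 3 of 6 measured T cell markers, 4 of 6 dendritic, 2 of 7 neutrophil and 1 of 3 B cell markers passed the filter. By limma's adjusted p, 0 T cell markers changed, 2 dendritic markers rose in the wild-type, and 1 neutrophil and 1 B cell marker rose in the mutant. The part of these cells in the Itgam and Itgb2 results was not tested.

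**Figure D3:**
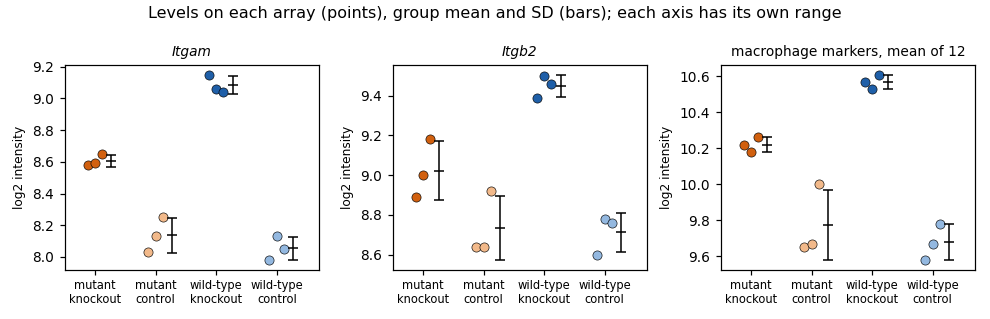
Log2 intensity on each array of Itgam, Itgb2 and the mean of 12 macrophage markers, by group from mutant knockout to wild-type control, with mean and SD as bars and a separate range for each panel. In all 3 panels wild-type knockouts are highest and mutant knockouts next, though 1 mutant control reaches the mutant knockouts for Itgb2.

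Of 3 tested proteins that are named after integrins without being integrin chains, 1 fell in the mutant and 2 fell in the wild-type. The shares of all genes that fell were 5.77% and 9.66%. Itgbl1 read 12, 12.06 and 12.12 in mutant knockouts against 12.67, 12.59 and 12.71 in mutant controls, and 12.53, 12.48 and 12.47 in wild-type knockouts against 12.63, 12.73 and 12.65 in wild-type controls. Mutant knockouts lay lowest, well apart from every other array, and wild-type knockouts lay just below both control groups. Itgbl1, a secreted protein with repeats like those of integrin beta chains, fell by 0.59 ± 0.05 (adjusted p = 3.18e-05) in the mutant, to a 0.66-fold level, and by 0.18 ± 0.05 (adjusted p = 0.0287) in the wild-type. The difference between these effects was -0.42 ± 0.07 (adjusted p = 0.0143). That difference was lost in 1 of 23 alternative fits, without the 2 arrays of highest Ucp1, and its adjusted p lay between 0.00429 and 0.0708 over them, and the wild-type call was lost in 6 of 24 alternative fits, when any 1 of wild-type knockouts 1, 2 and 3 and wild-type control 2 was left out, in a fit of only the groups compared and with the immediate early score in the model, and its adjusted p lay between 0.0127 and 0.109 over them. The mutant call was kept in all 24 alternative fits.

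Itgb1bp1 read 9.77, 9.62 and 9.79 in mutant knockouts against 9.74, 9.78 and 9.82 in mutant controls, and 9.62, 9.70 and 9.69 in wild-type knockouts against 9.90, 9.96 and 9.89 in wild-type controls. Wild-type controls stood above the wild-type knockouts and the mutant groups overlapped. Itgb1bp1, which binds the tail of Itgb1 and holds back its activation, fell by 0.24 ± 0.05 (adjusted p = 0.00761) in the wild-type, kept in all 24 alternative fits, against a difference of -0.05 ± 0.05 (adjusted p = 0.516) in the mutant. Itgb1bp2, a muscle chaperone, had 0.03 ± 0.05 in the mutant and -0.03 ± 0.05 in the wild-type. Itgb3bp, a centromere protein, read between 6.15 and 6.53 on all 12 arrays, below the filter.

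Of the 10 laminin chains, 1 fell in the mutant and 2 fell in the wild-type, where 5.77% and 9.66% of all genes fell, and 0 rose. These counts are near the shares over all genes. Lama5 read 11.84, 11.66 and 11.89 in mutant knockouts against 12.09, 11.89 and 11.86 in mutant controls, and 11.26, 11.47 and 11.19 in wild-type knockouts against 11.53, 11.61 and 11.79 in wild-type controls. Wild-type knockouts lay below wild-type controls, and the mutant groups, both above the wild-type knockouts, overlapped. Lama5, the most widespread alpha chain of adult basement membranes, fell by 0.34 ± 0.09 (adjusted p = 0.0246) in the wild-type and had a difference of -0.15 ± 0.09 (adjusted p = 0.287) in the mutant. The wild-type call of Lama5 was lost in 4 of 24 alternative fits, when any 1 of wild-type knockouts 1 and 3 and wild-type controls 2 and 3 was left out, and its adjusted p lay between 0.0113 and 0.102 over them.

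Lama4 read 11.54, 11.60 and 11.79 in mutant knockouts against 11.84, 11.80 and 11.84 in mutant controls, and 11.76, 11.84 and 11.70 in wild-type knockouts against 11.99, 11.91 and 12.10 in wild-type controls. Knockouts lay below controls without overlap in both genotypes. Lama4, the alpha chain of endothelial and smooth muscle laminin, fell by 0.23 ± 0.07 (adjusted p = 0.0377) in the wild-type and had a difference of -0.18 ± 0.07 (adjusted p = 0.103) in the mutant. The wild-type call of Lama4 was lost in 6 of 24 alternative fits, when any 1 of mutant control 2, wild-type knockouts 1 and 3 and wild-type controls 1 and 3 was left out and with the immediate early score in the model, and its adjusted p lay between 0.00853 and 0.134 over them. Lamc1 read 12.07, 12.03 and 12.20 in mutant knockouts against 12.57, 12.30 and 12.28 in mutant controls, and 12.03, 12.07 and 11.99 in wild-type knockouts against 12.23, 12.19 and 12.16 in wild-type controls. Knockouts again lay below controls without overlap, and mutant control 1 was the highest array. Lamc1, the gamma chain of most laminins, fell by 0.28 ± 0.07 (adjusted p = 0.0268) in the mutant and had a difference of -0.17 ± 0.07 (adjusted p = 0.141) in the wild-type. The mutant call of Lamc1 was lost in 6 of 24 alternative fits, when any 1 of mutant knockouts 1 and 2 and mutant control 1 was left out, in a fit of only the groups compared, without the 2 arrays of highest Ucp1 and with the immediate early score in the model, and its adjusted p lay between 0.00832 and 0.0931 over them.

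The remaining laminin chains did not pass the knockout tests. Lama2, the alpha chain of muscle laminin, had differences of -0.31 ± 0.10 (adjusted p = 0.0561) in the mutant and 0.16 ± 0.10 (adjusted p = 0.305) in the wild-type, and the difference between them was -0.47 ± 0.14 (adjusted p = 0.126). Lamb2, a beta chain of adult vessels and muscle, had -0.19 ± 0.07 (adjusted p = 0.0751) in the mutant and -0.13 ± 0.07 (adjusted p = 0.193) in the wild-type, with knockouts below controls on every array. Lamc3 had -0.19 ± 0.10 and -0.25 ± 0.10. Lama1, Lama3, Lamb1 and Lamb3 had differences between 0.05 and 0.16 in the mutant and between 0.06 and 0.12 in the wild-type.

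The effect of the Fbn1 mutation was read among knockouts and among controls. Among knockouts 8 of 38 genes (21.1%) changed, 2 upward and 6 downward, against 5.96% of all genes tested, 2.8% up and 3.16% down. Among controls 3 of 38 (7.89%) changed, 1 upward and 2 downward, against 6.49% of all genes, 3.17% up and 3.33% down. Arrays did not overlap for 17 of the 38 genes among knockouts, where 26.3% of all genes did not, and for 11 among controls, where 28.1% did not. The median size of the difference was 0.12 over the 38 genes and 0.07 over all genes among knockouts, and 0.08 over both among controls. The count among controls was 1 without mutant control 2, wild-type control 1 or wild-type control 2, 1 without the 2 arrays of highest Ucp1 and 1 with only the groups compared, but 5 after quantile normalization and 6 with array weights. Over all genes, 890 were called among knockouts, against 409 without the 2 arrays of highest Ucp1 and 579 with the immediate early score in the model. These comparisons use the same arrays as those above, whose values on each array stand there.

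Itgb8 and Itgb5 were lower in the mutant in both settings. Itgb8 fell by 0.58 ± 0.08 (adjusted p = 0.00209) among knockouts, kept in all 24 alternative fits, and fell by 0.46 ± 0.08 (adjusted p = 0.00782) among controls. The call among controls was lost in 1 of 24 alternative fits, in a fit of only the groups compared, and its adjusted p lay between 0.0036 and 0.0517 over them. Itgb5 fell by 0.18 ± 0.05 (adjusted p = 0.0334) among knockouts and by 0.17 ± 0.05 (adjusted p = 0.0463) among controls. The call of Itgb5 among knockouts was lost in 10 of 24 alternative fits, when any 1 of mutant knockouts 1, 2 and 3 and wild-type knockouts 1, 2 and 3 was left out, in a fit of only the groups compared, with the replicate block, without the 2 arrays of highest Ucp1 and with the immediate early score in the model, and its adjusted p lay between 0.00675 and 0.154 over them. Its call among controls was lost in 18 of 24 alternative fits, when any 1 of mutant knockouts 1, 2 and 3, mutant controls 2 and 3, wild-type knockouts 1, 2 and 3 and wild-type controls 1, 2 and 3 was left out, with no filter on the mean, with the medians of the arrays set equal, with robust variances, in a fit of only the groups compared, with the replicate block, without the 2 arrays of highest Ucp1 and with the immediate early score in the model, and its adjusted p lay between 0.0126 and 0.182 over them.

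Among knockouts, Itga10 and Lama5 were higher in the mutant, by 0.51 ± 0.09 (adjusted p = 0.0059) and 0.49 ± 0.09 (adjusted p = 0.00918). Among controls the same genes had differences of 0.02 ± 0.09 (adjusted p = 0.913) and 0.30 ± 0.09 (adjusted p = 0.0735), Lama5 without overlap. Itga11 was lower in mutant than in wild-type knockouts, with a difference of -0.63 ± 0.08 (adjusted p = 0.00113), a 0.64-fold level, and had -0.12 ± 0.08 (adjusted p = 0.415) among controls. Of the 6 fibroblast markers, 0 rose and 1 fell among knockouts with a median of -0.23, namely Lum at -0.45 ± 0.08 (adjusted p = 0.00519), and 1 rose among controls with a median of 0.05. Itgam fell by 0.47 ± 0.06 (adjusted p = 0.00115) among knockouts and had 0.09 ± 0.06 (adjusted p = 0.425) among controls. Itgb2 fell by 0.43 ± 0.09 (adjusted p = 0.0137) among knockouts and had 0.02 ± 0.09 (adjusted p = 0.896) among controls. The call of Itgb2 among knockouts was lost in 2 of 24 alternative fits, when any 1 of mutant knockout 1 and wild-type knockout 2 was left out, and its adjusted p lay between 0.00279 and 0.0685 over them. Of the 12 macrophage markers, 5 fell and 0 rose among knockouts, with a median of -0.41, where 3.16% of all genes fell. Among controls 1 rose, with a median of 0.10, where 3.17% of all genes rose. The part of macrophages in these results was not tested. Itgbl1 fell by 0.43 ± 0.05 (adjusted p = 0.000491) among knockouts, against -0.01 ± 0.05 (adjusted p = 0.889) among controls. Calls of Itga10, Itga11, Itgam, Itgbl1 and Lama5 among knockouts were kept in every alternative fit.

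Lamb1 read 9.47, 9.38 and 9.47 in mutant knockouts against 9.34, 9.43 and 9.39 in mutant controls, and 9.17, 9.32 and 9.30 in wild-type knockouts against 9.11, 9.13 and 9.18 in wild-type controls. Mutant arrays lay above wild-type arrays without overlap, among knockouts and among controls. Lamb1, a laminin beta chain prominent in growing tissue, was higher in the mutant by 0.24 ± 0.05 (adjusted p = 0.0203) among controls, and its difference among knockouts was 0.18 ± 0.05 (adjusted p = 0.0742). The call among controls was lost in 4 of 24 alternative fits, when any 1 of mutant control 2 and wild-type controls 1 and 2 was left out and without the 2 arrays of highest Ucp1, and its adjusted p lay between 0.00893 and 0.0903 over them. Mutant arrays of Lamc3 lay below wild-type arrays without overlap, with differences of -0.29 ± 0.10 among knockouts and -0.35 ± 0.10 among controls, but neither passed the test. Lama3, an epithelial chain, had differences of 0.20 ± 0.06 and 0.18 ± 0.06, likewise without overlap and without passing.

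**Figure D4:**
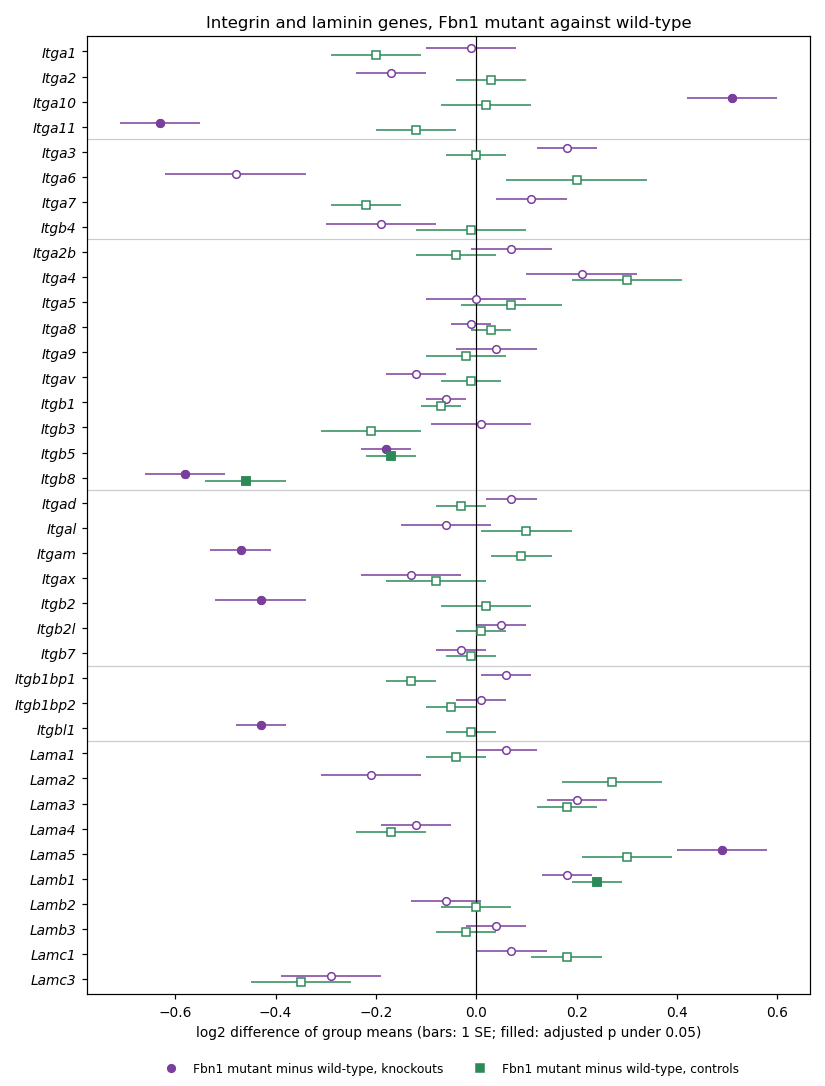
Difference of group means, Fbn1 mutant minus wild-type, in log2 units for the 38 tested genes in order of role (grey lines), with circles for knockouts, squares for controls and bars of 1 SE. Filled symbols have an adjusted p under 0.05. Itga11, at -0.63, lies farthest left among knockouts and Itgb8, at -0.46, among controls.

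The design also lets the knockout effects in the mutant and in the wild-type be set against each other directly. This difference passed for 2 of the 38 genes (5.26%), Itgam and Itgbl1, both downward, against 1.48% of all genes tested, 1.08% downward. It passed for Itgam alone without the 2 arrays of highest Ucp1, and for 5 genes with array weights. At an unadjusted p under 0.05 it was met by 9 of the 38 and by 16.5% of all genes. Itga11 came near, with a difference of -0.52 ± 0.12 (adjusted p = 0.0544), and Itga10 and Itga6 had 0.48 ± 0.13 (adjusted p = 0.083) and -0.68 ± 0.19 (adjusted p = 0.11). For genes that passed in 1 genotype and not in the other, such as Itga1, Itgav, Itgb8, Lama4, Lama5 and Lamc1, the difference itself did not pass.

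The ligands and partners of these receptors were read from lists chosen for the purpose. Of 24 tested matrix ligands of integrins, 2 rose and 11 fell in the mutant with a median of -0.20. Of all genes, 7.66% rose and 5.77% fell there. In the wild-type 4 ligands rose and 5 fell with a median of 0.05, where 9.17% and 9.66% of all genes rose and fell. Npnt, the ligand of the Itga8 dimer, fell by 0.48 ± 0.05 (adjusted p = 9.01e-05) in the mutant and by 0.39 ± 0.05 (adjusted p = 0.000198) in the wild-type. The latent TGF-beta binding proteins Ltbp3 and Ltbp1, which tie TGF-beta to the matrix, fell by 0.58 ± 0.05 and 0.45 ± 0.07 in the mutant and by 0.32 ± 0.05 and 0.37 ± 0.07 in the wild-type. Thbs1, an adhesive glycoprotein, rose by 1.5 ± 0.24 (adjusted p = 0.00215) in the mutant and by 1.86 ± 0.24 (adjusted p = 0.000215) in the wild-type. Between mutant and wild-type controls 6 ligands rose and 1 fell, where 3.17% and 3.33% of all genes rose and fell. Tenascin C, the ligand of the Itga9 dimer, was higher by 1.49 ± 0.13 (adjusted p = 0.00012), Col1a1 by 0.68 ± 0.07 and Col3a1 by 0.56 ± 0.08. On these 3 genes the knockout effect was -0.65 ± 0.13, -0.22 ± 0.07 and -0.41 ± 0.08 in the mutant. In the wild-type it was 0.38 ± 0.13, 0.34 ± 0.07 and 0.23 ± 0.08. Tenascin C and Col3a1 passed the test in the mutant, and Col1a1 in the wild-type. The differences of these effects, mutant minus wild-type, were -1.02 ± 0.18, -0.57 ± 0.10 and -0.64 ± 0.11, and all passed. Col1a1 is also 1 of the 6 fibroblast markers.

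Partners of laminin in the basement membrane and at the muscle cell surface fell more often than they rose. Of 26 tested genes, 2 rose and 14 fell in the mutant with a median of -0.22, where 7.66% and 5.77% of all genes rose and fell. In the wild-type 4 rose and 12 fell with a median of -0.17, where 9.17% and 9.66% of all genes rose and fell. Col15a1 and Col4a5, collagens of basement membranes, fell by 1.39 ± 0.07 (adjusted p = 5.92e-07) and 0.92 ± 0.05 (adjusted p = 9.83e-07) in the mutant. In the wild-type Col15a1 fell by 0.60 ± 0.07 (adjusted p = 0.000156), while Col4a5 had -0.16 ± 0.05 (adjusted p = 0.0527), and the differences between genotypes were -0.79 ± 0.10 (adjusted p = 0.00309) and -0.76 ± 0.07 (adjusted p = 0.000426). Agrn, the proteoglycan agrin, fell by 0.42 ± 0.05 (adjusted p = 0.000111) in the wild-type, and Ntn4, a netrin that binds laminin, rose by 0.77 ± 0.10 (adjusted p = 0.000302). Sgca, a sarcoglycan of muscle, rose by 0.41 ± 0.05 (adjusted p = 0.000338) in the mutant. Between mutant and wild-type controls 9 of the 26 rose and 2 fell, where 3.17% and 3.33% of all genes rose and fell. Among them were Nid2, which links laminin to collagen, at 0.52 ± 0.07 (adjusted p = 0.00145), and Smoc1 at -0.60 ± 0.08 (adjusted p = 0.00143). Summed intensity of the 26 genes lay between 103900 and 107200 in mutant knockouts, 121700 and 133000 in mutant controls, 107900 and 110000 in wild-type knockouts and 119300 and 121700 in wild-type controls.

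**Figure D5:**
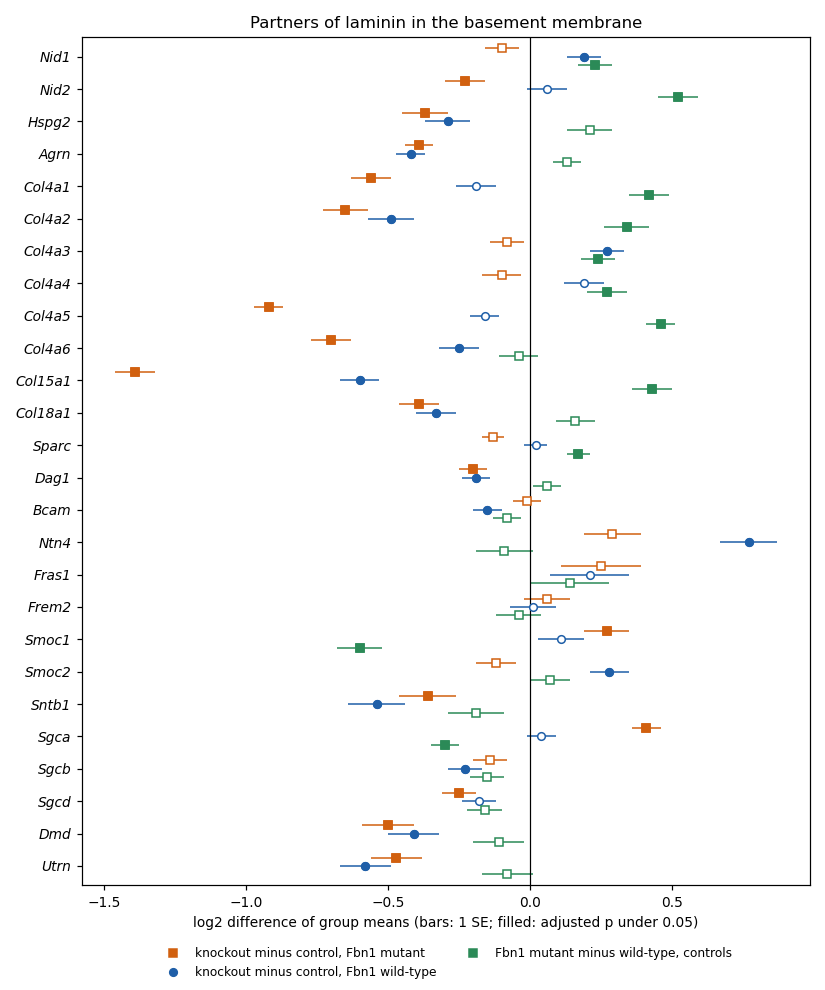
Difference of group means in log2 units for 26 partners of laminin, with squares in orange for knockout minus control in the mutant, circles for the same in the wild-type, green squares for mutant minus wild-type among controls, and bars of 1 SE. Filled symbols have an adjusted p under 0.05. Col15a1 at -1.39 and Col4a5 at -0.92 lie farthest left, both for the knockout in the mutant.

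Inside the cell, adaptors join integrin tails to actin and to kinases. Of 28 tested adaptors, 2 rose and 3 fell in the mutant with a median of 0.00, where 7.66% and 5.77% of all genes rose and fell. In the wild-type 4 rose and 5 fell with a median of -0.01, where 9.17% and 9.66% of all genes rose and fell. In the wild-type, Fermt3, the kindlin of blood cells, rose by 0.41 ± 0.07 (adjusted p = 0.00164) and the kinase Ptk2b by 0.49 ± 0.09 (adjusted p = 0.0029). Actn1, an actin crosslinker at adhesion sites, fell by 0.24 ± 0.05 (adjusted p = 0.00383) there and by 0.20 ± 0.05 (adjusted p = 0.0179) in the mutant. Between mutant and wild-type controls 0 of the 28 passed limma's adjusted threshold.

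Counter-receptors of leukocyte integrins rose more often than they fell. Of 11 tested genes, 3 rose and 1 fell in the mutant with a median of 0.16, where 7.66% and 5.77% of all genes rose and fell. In the wild-type 4 rose and 1 fell with a median of 0.15, where 9.17% and 9.66% of all genes rose and fell. Icam1, the ligand of Itgb2 integrins on endothelium, rose by 0.41 ± 0.09 (adjusted p = 0.0154) in the mutant and by 0.67 ± 0.09 (adjusted p = 0.000368) in the wild-type. Vcam1, the ligand of the Itga4 dimers, rose by 0.56 ± 0.09 (adjusted p = 0.000764) in the wild-type, and Jam3, a junction protein bound by Itgam, fell by 0.24 ± 0.07 (adjusted p = 0.0416) in the mutant and by 0.34 ± 0.07 (adjusted p = 0.00546) in the wild-type.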

How the data were processed

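RNA of the ascending aorta was labelled with biotin and hybridised to 1-colour Affymetrix whole-transcript arrays, per the labels. The authors deposited linear intensity for 35556 probe sets, normalised with RMA in Partek 6.4, per the submitters' processing notes. Log2 was taken first. Of 23410 annotated probe sets, 21789 carried 1 symbol, and each gene was read by its brightest one. Genes with a mean under the 25th percentile of these (log2 7.31, intensity 159) were not tested, which left 14944. One coefficient per group was fitted with limma 3.58.1 in R 4.3.3 (8 residual and 4.54 prior degrees of freedom). Tests were two-sided, with Benjamini-Hochberg adjustment over all genes tested.

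Alternatives covered the filter, scaling, probe sets, variance model, array weights, arrays in the fit, the replicate block, the immediate early score and each array left out. Values on each array are given for members called in any of 5 contrasts, and up to 4 genes of smallest p per list and contrast may be named. Members, lists and alternatives were chosen with earlier results of these data known. Same-numbered arrays had residual correlations between -0.21 and 0.24. Arrays of different numbers were not compared in this way, so whether the numbers pair arrays is not settled. The fit was tested on simulated data. False calls there made up 5.05% for the knockout in the mutant and 7.32% in the wild-type. For the mutation they made up 5.18% among knockouts and 8.59% among controls, and for the difference 4.12%. Precision is limited by the number of arrays. The build behind the array's annotation is not given in the sources used here, and no gene coordinates were taken from it.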

Additional observations from a re-analysis of the deposited data

Results flagged for a closer look

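For Itgam and Itgbl1 the effect of the knockout differed between the Fbn1 genotypes, by limma's test of the difference itself. Itgam rose by 0.47 ± 0.06 (adjusted p = 0.00066) in the mutant and by 1.03 ± 0.06 (adjusted p = 1.39e-06) in the wild-type, a difference of -0.56 ± 0.09 (adjusted p = 0.00891). Every knockout array lay above every control array of its genotype, and its adjusted p over 22 alternative fits lay between 0.00282 and 0.0375. Itgbl1 fell by 0.59 ± 0.05 (adjusted p = 3.18e-05) in the mutant and by 0.18 ± 0.05 (adjusted p = 0.0287) in the wild-type, a difference of -0.42 ± 0.07 (adjusted p = 0.0143). Its knockout arrays lay below all control arrays of their genotype, and its adjusted p over 23 alternative fits lay between 0.00429 and 0.0708.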

How the results depend on the processing

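Of the 42 calls of integrin and laminin genes over the 5 contrasts, 22 were kept in every alternative that gave them a value, and 0 changed direction. With each array left out in turn, the count of members called lay between 6 and 13 for the knockout in the mutant and between 10 and 19 in the wild-type, between 6 and 9 for the mutation among knockouts and between 1 and 4 among controls, and between 2 and 3 for the difference. Over all genes the same counts lay between 896 and 2146, 1836 and 2992, 382 and 1019, 349 and 1073, and 107 and 202, in that order. With only the groups compared, 6 members and 1261 genes were called for the knockout in the mutant, and 1 member and 480 genes for the mutation among controls. With the immediate early score in the model, 7 members and 1012 genes were called for the knockout in the mutant, and 579 genes for the mutation among knockouts. Without the 2 arrays of highest Ucp1, 1082 genes were called for the knockout in the mutant, 409 genes for the mutation among knockouts, 1 member for the mutation among controls and 1 for the difference. Array weights gave 3687 genes for the knockout in the mutant, 1687 for the mutation among knockouts, 1568 genes and 6 members among controls, and 469 genes and 5 members for the difference. Quantile normalization gave 5 members for the mutation among controls. The cause of these changes was not tested. With title numbers fitted as a replicate block, 11 members were called for the knockout in the mutant and 16 in the wild-type. For the mutation 7 were called among knockouts and 2 among controls, and 4 were called for the difference.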

Other observations

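Some of the integrin genes lie next to each other in the RefSeq gene order, with 0 protein-coding genes between Itga2 and Itga1 on chromosome 13, and likewise between Itgam, Itgax and Itgad on chromosome 7. The neighbours Itga2 and Itga1 differed in direction in wild-type knockouts, where Itga2 rose by 0.45 ± 0.07 and Itga1 fell by 0.27 ± 0.09. Of the other group, Itgam rose by 1.03 ± 0.06, while Itgax had 0.25 ± 0.10 and Itgad 0.07 ± 0.05, neither past the test. Itgad was the only one of the 41 genes with a further probe set of its own, which averaged 7.46 over the 12 arrays, against 8.69 for the one used. A further 3 probe sets carried the symbols of both Itgam and Rpl35 and were not used.

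Muscle genes of the heart and skeleton also moved in these samples. For the knockout, 4 of 7 tested markers rose in the mutant and 2 in the wild-type, where 7.66% and 9.17% of all genes rose. Tnnt2, troponin T of heart muscle, rose by 1.01 ± 0.16 (adjusted p = 0.00215) in the mutant and by 0.62 ± 0.16 (adjusted p = 0.0166) in the wild-type.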
